A study of Helix lucorum with 35 samples.

Results

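The left parietal ganglia (PaG) of experiment E1 were compared with each other, activated against control, so that the side of the body was the same in all samples. They gave 6 of the 24 libraries with counts in the series, which holds 35 libraries in all, and were chosen by the experiment, side and condition in the sample labels. The left PaG of snails 1, 2 and 3 were activated, and the left PaG of snails 4, 5 and 6 served as controls, so no snail is in both groups. The right PaG of each snail had the other role: those of snails 4, 5 and 6 were activated, and those of snails 1, 2 and 3 were controls.

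All snails were adult Helix lucorum taken from a stock kept active and fed lettuce, and their isolated central ganglia had rested in the cold in a saline that suppresses electrical activity. The activated left PaG were then given anisomycin (20 µM, 10 min), followed by anisomycin together with 5-HT (5 µM) and caffeine (100 µM) for another 20 to 25 min in normal saline. The control left PaG were cut off and frozen before that, without any drug. The comparison of activated with control samples therefore covers 5-HT, caffeine, anisomycin, the change of saline and the added time together, and these cannot be told apart. The methods state that left PaG included the adhering visceral ganglion, while a figure legend states that this ganglion was left out of the experiments. Both left groups share whichever holds.

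Immediate early genes (IEGs) are genes whose transcription starts within minutes of neuronal activity, without new protein being made. Many of them encode transcription factors, such as the mammalian c-fos, whose product pairs with Jun proteins to form AP-1, and their mRNA is short-lived. Anisomycin blocks translation, so that transcripts which accumulate in its presence do not depend on newly made protein, and 5-HT is the transmitter by which gastropod neurons are modulated during sensitization. The contigs of the snail's de novo assembly have numbers and no names. Only contig 1398029 is paired with a gene, c-fos/fosl2, in the sources used here, so no other contig can be given a function, and the tissue could not be checked against marker genes.

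The libraries of the left activated PaG of snails 1, 2 and 3 held 7585969, 24039414 and 30474228 counts, and those of the left control PaG of snails 4, 5 and 6 held 30664588, 3513906 and 3581307. The depth was thus uneven, with 2 of the 3 control libraries being the shallowest, and the share of the 693041 contigs with a count was between 45.3% and 63.8% in left activated libraries, against 29.9% to 65.0% in left control libraries. Levels are given as CPM, the counts of a contig scaled to a common library size with edgeR's TMM method over the 12 E1 libraries. Fold changes are log2 values of activated over control from edgeR's exact test on the 6 left libraries, and contigs were called DE where the adjusted p was below 0.05 and the fold change exceeded 2.

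Contig 1398029, the c-fos/fosl2 homolog, was higher in the activated left PaG. It was at 116, 59.9 and 51.0 CPM in the left activated libraries of snails 1, 2 and 3, against 14.8, 4.16 and 2.85 CPM in the left control libraries of snails 4, 5 and 6. The groups did not overlap, and the lowest activated library, that of snail 3, stood above the highest control library, that of snail 4. The means were 75.7 ± 35.4 CPM in activated and 7.26 ± 6.54 CPM in control left PaG (SD, n = 3 each), with a log2 fold change of 3.37 (adjusted p = 0.0380 in edgeR's exact test). As whole ganglia were sequenced, more cells with the transcript and more transcript per cell cannot be told apart. In the right PaG, where the roles of the snails were reversed, it was at 42.5, 52.0 and 47.2 CPM in the activated libraries of snails 4, 5 and 6, and at 1.56, 10.7 and 3.04 CPM in the control libraries of snails 1, 2 and 3. The right groups were apart in the same direction (log2 fold change 3.28, adjusted p = 0.0528 by the exact test of edgeR), and within each of the 6 snails the activated PaG had more than the control PaG, by 1.49 on the log2 scale in snail 4 and up to 5.83 in snail 1. The left and right responses differed by 0.12 in log2 units (adjusted p = 1 in edgeR's quasi-likelihood test). The call on the left was lost, at an adjusted p of up to 0.264, without the activated library of snail 1 or 2 or the control library of snail 5 or 6, in edgeR's quasi-likelihood test, with an adjusted p of 0.550, and with the filter of the study's methods, over all 12 E1 libraries in place of the 6 left ones, with an adjusted p of 0.0678. With the snail as a block over both PaG it passed in limma (log2 fold change 3.49, adjusted p = 0.0138), which called 559 of 387774 contigs (0.144%), 556 of them higher (0.143%).

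Across the assembly, 865 of 299775 contigs tested were called DE in the left PaG (0.289%). Of these, 607 were higher in activated PaG (0.202%) and 258 were lower (0.0861%). An unadjusted p below 0.05 was found for 16371 contigs (5.46%). The median log2 fold change of all contigs tested was 0.19. Among the contigs called higher, the median was 5.91, or 4.13 where the 258 without a count in the left control libraries were given 3 counts for that group as a floor. Among those called lower, it was -7.34, or -5.32 where the 167 without a count in the left activated libraries were given that floor. The number of calls depended on the test: edgeR's quasi-likelihood test on the same 6 libraries called 2 contigs (0.000667%, with 14935 or 4.98% at an unadjusted p below 0.05), and DESeq2 called 798 (0.266%), of which 640 were among the 865. Without the deep control library of snail 4, the exact test called 1483 contigs, 1179 of them higher.

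Most of the contigs with the smallest p were present in some snails and nearly absent in others, whichever PaG was activated. Contig 857855 was at 52.8, 66.2 and 70.9 CPM in the left activated libraries of snails 1, 2 and 3, against 0.303, 0 and 0 CPM in the left control libraries of snails 4, 5 and 6 (edgeR's exact test, adjusted p = 7.70e-12). In the right PaG it was at 0 CPM in all 3 activated libraries, and at 56.0, 56.5 and 66.8 CPM in the control libraries of snails 1, 2 and 3. Its level followed the snail on both sides, since both PaG of snails 1 to 3 had it and both PaG of snails 4 to 6 had at most 0.303 CPM. Contig 372954, one of the 3 most abundant contigs called higher, was at 262, 266 and 348 CPM in left activated libraries, against 5.72, 1.71 and 1.66 CPM in left control libraries (log2 fold change 6.51, adjusted p = 1.29e-09 in edgeR's exact test). On the right it was at 3.10, 4.80 and 5.41 CPM in activated libraries, and at 309, 266 and 357 CPM in control libraries.

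The same arrangement was seen in most of the other contigs among the 12 with the smallest p of those called higher. Contig 1293671 was at 37.7, 37.0 and 55.3 CPM in left activated libraries, against 0.379, 0.245 and 0.237 CPM in left control libraries, and at up to 0.757 CPM in right activated libraries, against 28.5 to 40.3 CPM in right control libraries. It was 1 of the 2 contigs that edgeR's quasi-likelihood test called (adjusted p = 0.0395). Contig 1428295 had 919 counts in the left activated libraries and 1 count in the left control libraries, a ratio of 543 with an exact 95% counting interval of 97.3 to 21490. Contigs 946321, 393822, 321126 and 758549 had no count in any left control library, and against the floor of 3 counts over that group they were at least 149-fold, 141-fold, 241-fold and 130-fold higher in left activated libraries. Contigs 552450, 1071392 and 256015 were at between 13.8 and 38.0 CPM in left activated libraries and at no more than 0.475 CPM in left control libraries. Contigs 579758, 393822 and 321126 departed from the split between snails. Contig 579758 was at 23.7, 26.0 and 25.4 CPM in left activated libraries and at 0 in the 3 left control libraries, at least 294-fold higher, but on the right it was also present in 1 of the activated libraries, at 26.5 CPM in snail 5 and at 0 in snails 4 and 6. Contig 393822 was at 2.24 CPM in the right activated library of snail 6 and contig 321126 at 2.19 CPM in that of snail 5, each with 0 in the other two and with 9.73 to 13.1 CPM and 13.3 to 30.0 CPM in right control libraries, and neither was called on the right (adjusted p = 0.696 and 0.290 in edgeR's exact test).

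Contig 704724 was the most abundant contig called higher, with 805, 510 and 461 CPM in left activated libraries, against 22.8, 4.41 and 16.1 CPM in left control libraries (log2 fold change 5.33, adjusted p = 1.04e-05 in edgeR's exact test). On the right it was at 4.04, 9.42 and 11.9 CPM in activated libraries and at 1365, 464 and 707 CPM in control libraries. It too was high in both PaG of snails 1 to 3 only.

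The contigs called lower showed the mirror image. Contig 1228888 was at 0.125, 0.127 and 0.0739 CPM in the left activated libraries of snails 1, 2 and 3, against 62.4, 75.9 and 66.7 CPM in the left control libraries of snails 4, 5 and 6 (log2 fold change -9.31, adjusted p = 1.27e-15 in edgeR's exact test, and 0.0141 in its quasi-likelihood test). In the right PaG it was at 90.9, 113 and 83.0 CPM in activated libraries, and at 2.40, 0.151 and 0 CPM in control libraries. Contig 963257 had 3 counts in the left activated libraries and 2109 in the left control libraries, 1189-fold lower with an exact 95% counting interval of 406 to 5769. On the right it was at 70.5 to 88.2 CPM in activated libraries and at no more than 0.162 CPM in control libraries. Contigs 1476131, 878783, 1618689 and 355956 had no count in any left activated library, and against the same floor they were at least 340-fold, 336-fold, 305-fold and 262-fold lower there. Of these 6 contigs, 5 were high in both PaG of snails 4, 5 and 6, while contig 1618689 was at 0 in the right activated PaG of snail 5 and at 14.0 and 16.0 CPM in those of snails 4 and 6.

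**Figure D1:**
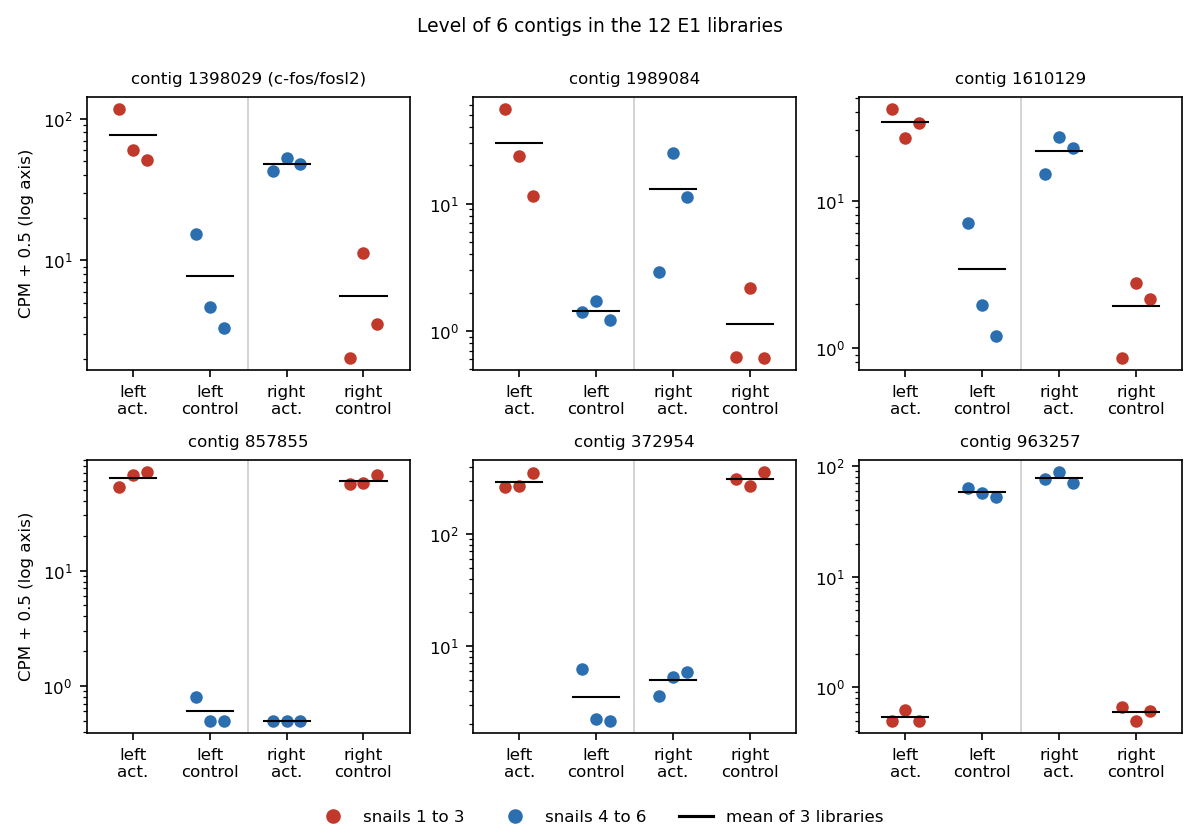
Levels of 6 contigs in the 12 E1 libraries, as CPM plus 0.5 on a log axis, with activated left of control for each side, 1 point per library and a line at the mean of 3 libraries. Points are coloured by snail. Contigs 1398029, 1989084 and 1610129 were higher in activated than in control PaG on both sides, while contigs 857855 and 372954 were high in both PaG of snails 1 to 3 and contig 963257 in both PaG of snails 4 to 6.

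The right PaG were read for all 865 contigs, using the same test on the 6 right libraries. The right comparison shares no library with the left one but uses the same 6 snails in swapped roles, so a level set by the snail alone would appear with the opposite sign. On the right, 1020 of 266980 contigs tested were called (0.382%), with 341 higher (0.128%) and 679 lower (0.254%). These calls depended on the test, as edgeR's quasi-likelihood test called 0 contigs on the right. Of the 607 contigs called higher on the left, 594 were tested on the right. There, 407 of them (68.5%) had a negative and 187 a positive log2 fold change. Of all contigs tested on both sides, 44.4% had a positive one, with a median of -0.10. Most contigs were therefore not positive on the right to begin with, and the 68.5% is to be read against that majority. The 3 right activated libraries were all below the 3 right control libraries in 279 of the 594 (47.0%, against 7.72% of all contigs) and all above them in 75 (12.6%, against 3.87%). In 184 of the 594 (31.0%) the right PaG gave a call of lower, against 0.271% of all contigs tested on both sides, and in 8 (1.35%) a call of higher, against 0.133%. Of the 258 contigs called lower on the left, 247 were tested on the right, where 238 of them (96.4%) had a positive log2 fold change. In 113 (45.7%) the right PaG gave a call of higher, and in 0 a call of lower by edgeR's exact test, its quasi-likelihood test or DESeq2, with 0 at an unadjusted p below 0.05 in that direction. The contigs called on both sides numbered 305, which is 35.3% of the calls on the left and 29.9% of those on the right. Among them 8 had the same direction on both sides, each time higher, and 297 had opposite directions. With each left library left out in turn, between 67.7% and 83.2% of the contigs called higher and between 92.7% and 96.6% of those called lower had the opposite sign on the right. A filter of 1 CPM in 3 libraries, DESeq2 and thinning to the smallest library were also used. For the contigs called lower, the share was between 96.6% and 97.9% in these 3. For those called higher, it was 53.0%, 60.0% and 61.2% in the same order. On the right, only 44.4% of all contigs tested on both sides were positive, so most contigs were not positive there. The 53.0% was not above the share of contigs that were not positive, and the 60.0% and 61.2% were a little above it.

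**Figure D2:**
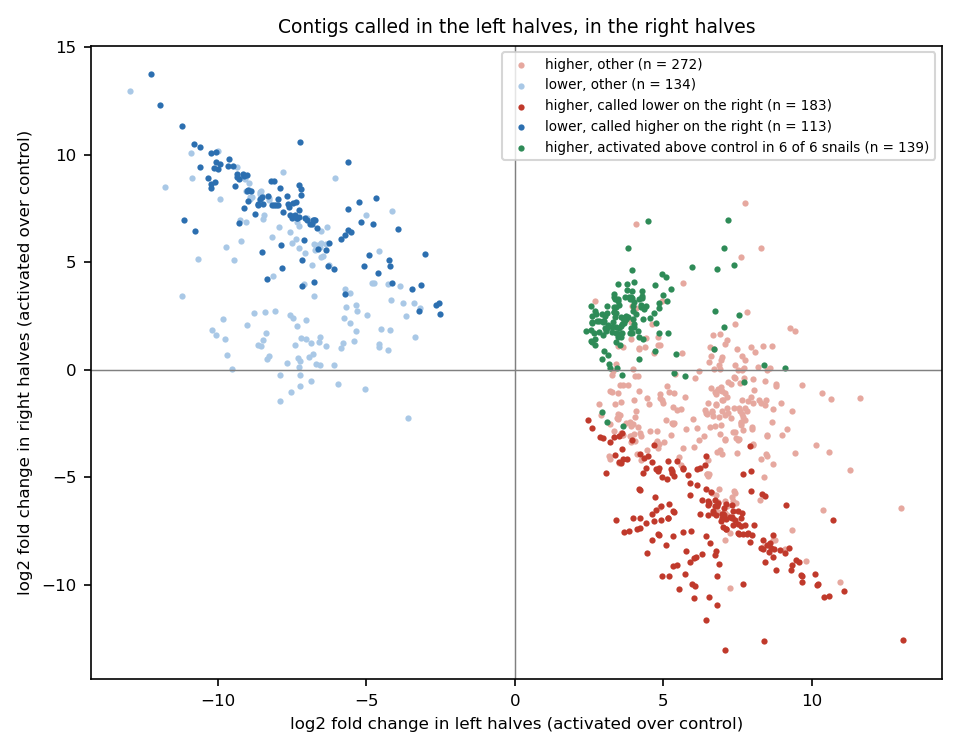
Log2 fold change of activated over control in left PaG (horizontal axis) and right PaG (vertical axis) for the 841 contigs called in the left PaG and tested on both sides, 1 point per contig, coloured by group as named in the legend. Contigs called lower on the left sit almost all above 0 on the right, and of those called higher, 407 sit below 0 and 187 above it.

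The libraries as a whole were paired by snail. The nearest library to each of the 6 left libraries, by 1 minus Spearman's correlation over contigs, was the right library of the same snail, at a mean distance of 0.282 (range 0.205 to 0.372). Left activated and left control libraries were 0.421 apart on average, while left activated libraries were 0.363 and left control libraries 0.455 from each other. The left control libraries were thus farther from each other than from left activated libraries. Libraries of snails 1 to 3 and those of snails 4 to 6 were 0.418 apart on average. Depth was uneven, and its part in these distances was not tested. The difference between the left and the right response was called for 391 of 387774 contigs (0.101%, edgeR's quasi-likelihood test over the 12 libraries in 4 groups, with 8.71% at an unadjusted p below 0.05), and 313 of these were among the 865 called in the left PaG. That test takes both PaG of a snail as independent, and on the means of the 6 snails limma called 161 contigs (0.0415%). By the design, this difference is also that between snails 1 to 3 and snails 4 to 6. The test therefore cannot tell a response that differs between the sides from a difference between the sets of snails.

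A smaller group of contigs, like contig 1398029, was higher in the activated PaG of every snail. Of the 607 contigs called higher on the left, 139 (22.9%) had more in the activated than in the control PaG of each of the 6 snails, against 1.97% of all contigs tested on the left. None of the 258 contigs called lower had less in the activated PaG of all 6 snails. That 0 is near the share of all contigs, 0.572%, and is no contrast to the 139. Without a count in either PaG of a snail, no difference can appear. This held in snails 1 to 3 for 95 of the 258, and in snails 4 to 6 for 98 of the 607. Each difference within a snail includes 1 of the 6 left libraries on which the contigs were called, so that these counts are a description and no separate support for the calls. The median level of these 139 contigs was 7.34 CPM in left activated and 0.496 CPM in left control PaG, and 3.62 CPM in right activated and 0.966 CPM in right control PaG. In the 183 other contigs called higher that were called lower on the right, the medians were 3.18 CPM in left activated and 0.0126 CPM in left control PaG, and 0 CPM in right activated and 3.18 CPM in right control PaG. Within snails, the 139 contigs differed least in snail 4, which gave the smallest difference between its PaG in 115 of them and a median of 0.71 on the log2 scale. The medians in the other 5 snails were between 1.86 and 3.21, the highest being that of snail 1. The left control library of snail 4 had the highest level of the 3 left control libraries in 110 of the 139 contigs. Why snail 4 stood apart was not tested.

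Of the 8 contigs called higher on both sides, the 5 for which the larger of the left and right p was smallest are described first. Contig 1610129 was at 41.3, 26.3 and 33.0 CPM in left activated libraries, against 6.59, 1.47 and 0.712 CPM in left control libraries (log2 fold change 3.46, adjusted p = 0.0441 in edgeR's exact test). On the right it was at 14.7, 26.6 and 22.2 CPM in activated and at 0.357, 2.26 and 1.64 CPM in control libraries. Contig 1537764 was at 23.7, 16.0 and 6.21 CPM in left activated libraries, against 1.89, 0.734 and 1.19 CPM in left control libraries (log2 fold change 3.50, adjusted p = 0.0109 in edgeR's exact test), and at 4.58, 16.3 and 6.53 CPM in right activated libraries, against 0.973, 1.51 and 1.05 CPM in right control libraries. Neither contig had overlapping groups on either side. Contigs 1027963 and 542561 were lower in level, with means of 3.53 ± 2.04 and 3.31 ± 2.70 CPM in left activated PaG and of 0.183 ± 0.161 and 0.130 ± 0.120 CPM in left control PaG (SD, n = 3 each). Contig 1522059 was at 0.517 to 1.63 CPM in left activated libraries and had no count in left control libraries, which is at least 11.4-fold higher. All 5 were higher in the activated PaG in 6 of 6 snails. They were chosen by calls on both sides, which used both libraries of each snail. Their gaps between groups and within snails thus follow largely from the choice and are no separate support. All 5 also lost their call on the left without the activated library of snail 1, the control library of snail 5 or that of snail 6, with an adjusted p of up to 0.281 in edgeR's exact test. Of the 3 others, contig 399398 had the smallest p on the left (log2 fold change 3.93, adjusted p = 0.00175 in edgeR's exact test) and kept its call without each left library in turn. Contig 1596259 (log2 fold change 3.47, adjusted p = 0.00629) lost its call without the control library of snail 5 or 6, and contig 695420 (log2 fold change 3.48, adjusted p = 0.0494) lost it without any 1 of the left libraries other than the control library of snail 4. These 3 were named after their values were seen. Contig 715109, the third most abundant contig called higher, was at 344, 244 and 248 CPM in left activated libraries, against 69.1, 35.7 and 35.6 CPM in left control libraries (log2 fold change 2.55, adjusted p = 0.0372 in edgeR's exact test). On the right it was at 99.9, 314 and 174 CPM in activated libraries and at 53.7, 87.4 and 33.2 CPM in control libraries. It was also higher in 6 of 6 snails, with the groups apart on the right but no call there (adjusted p = 0.507 in edgeR's exact test), and its call on the left was lost without any 1 of the left libraries other than the control library of snail 4.

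The snails of E2 gave a measurement that had no part in these groups. E2 used a medial part of the PaG from other snails and the same drugs. Most activated libraries of E2 came from the left and most control libraries from the right, so side was not held constant there. Most snails of E2 gave a library to both groups, but the test was unpaired. The log2 fold change of activated over control was positive in E2 for 44.5% of the 261248 contigs tested in both. Of the 139 contigs that were higher in 6 of 6 snails of E1, 133 were positive in E2 (95.7%). Contig 1398029 was among them but was not called in E2 (log2 fold change 2.04, adjusted p = 0.392 in edgeR's exact test). The 5 contigs described first as higher on both sides were positive in E2 at 1.52 to 2.51. None of these 5 was called there, the smallest adjusted p being 0.261 in the same test. Of the 176 tested contigs that were called higher on the left and lower on the right, 70 were positive in E2 (39.8%). For the contigs called lower on the left and higher on the right, the number was 36 of 107 (33.6%).

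**Figure D3:**
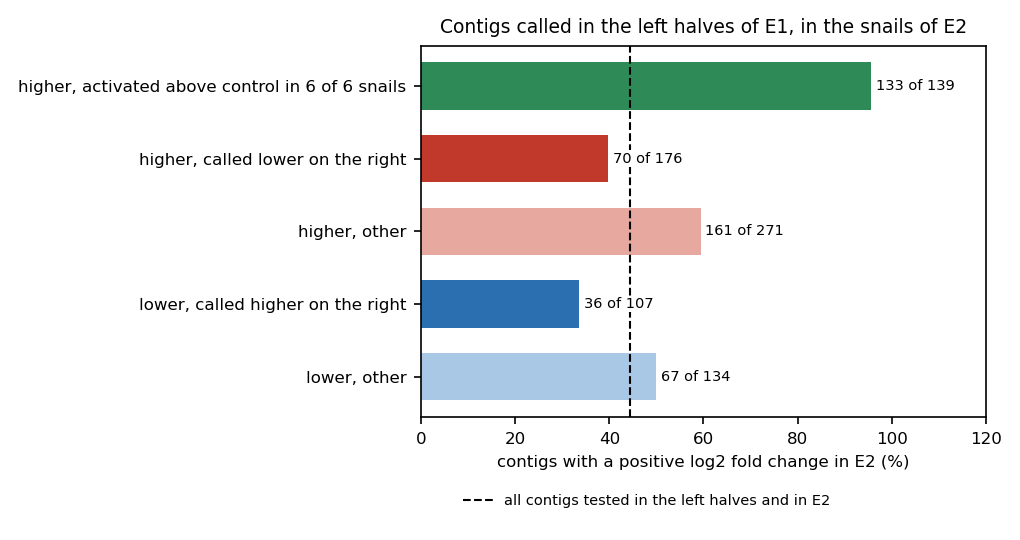
Share of contigs, in percent, with a positive log2 fold change of activated over control in E2, for 5 groups of contigs called in the left PaG of E1. Numbers beside the bars are contigs positive of contigs tested, and the dashed line is the share among all contigs tested in both (44.5%). The contigs higher in the activated PaG of 6 of 6 snails reach 95.7%, and the others lie between 33.6% and 59.4%.

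Read from the other direction, 76 contigs were called higher in E2 (0.0239% of those tested there), and 74 of them were tested in the left PaG of E1. There, 66 (89.2%) had a positive log2 fold change, against 60.2% of all contigs, with a median of 2.85. The 3 activated left libraries were above the 3 control left libraries in 49 of the 74 (66.2%), against 8.68% of all contigs. The exact test called 24 of the 74 higher (32.4%, against 0.202% of all contigs) and 0 lower (0.0861% of all contigs), and 0 were lower at an unadjusted p below 0.05 or by edgeR's quasi-likelihood test or DESeq2. Of the 35 tested contigs that were called lower in E2 (0.0113%), 0 were called on the left by edgeR's exact test (0.289% of all contigs). Its quasi-likelihood test called 0 (0.000667% of all contigs) and DESeq2 called 1 (0.266%). At these shares, 0 calls among 35 contigs say little. An unadjusted p below 0.05 in the exact test was found for 9 of the 35, against 5.46% of all contigs. Their median log2 fold change on the left was -0.52, and the 3 activated left libraries were below the 3 control left libraries in 9 of them (25.7%), against 2.51% of all contigs. The 24 shared contigs had log2 fold changes between 2.84 and 5.65 on the left. All 24 were positive on the right, at 1.45 to 6.75, against 44.4% of all contigs tested on both sides. However, 0 were called there by edgeR's exact test (0.382% of all contigs), 0 by its quasi-likelihood test and 2 by DESeq2. An unadjusted p below 0.05 was found on the right for 21, but the share of all contigs at that p was not computed there. In 21 of the 24 the activated PaG was higher in 6 of 6 snails. The count of 24 was 12 when the activated library of snail 1 was left out, 10 when the control library of snail 5 was, and 11 when that of snail 6 was.

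**Figure D4:**
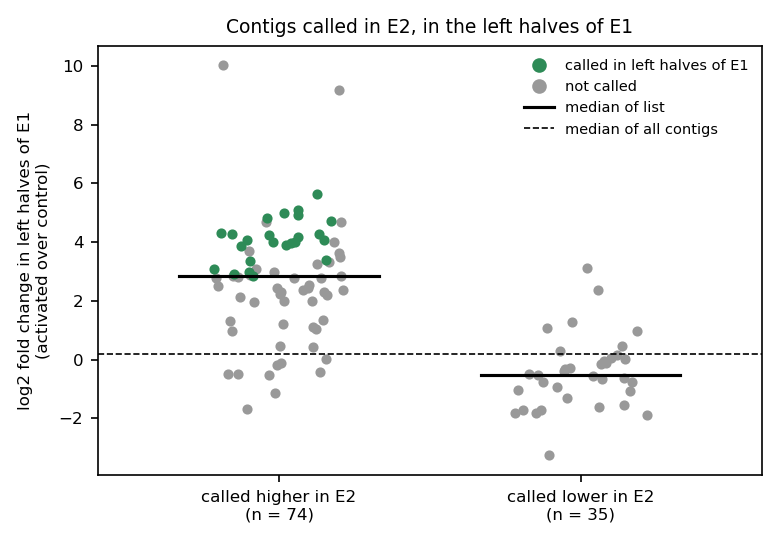
Log2 fold change of activated over control in the left PaG of E1 for the contigs called higher (n = 74) and called lower (n = 35) in E2, 1 point per contig, with random horizontal spread. Green points were called in the left PaG, solid lines are the medians of the lists (2.85 and -0.52), and the dashed line is the median of all contigs (0.19).

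The 4 of the 24 with the smallest p on the left were chosen after their values were seen. Contig 1989084 was at 54.6, 23.0 and 11.0 CPM in left activated libraries, against 0.909, 1.22 and 0.712 CPM in left control libraries (log2 fold change 4.94, adjusted p = 0.000281 in edgeR's exact test). On the right it was at 2.41, 24.5 and 10.8 CPM in activated and at 0.130, 1.66 and 0.117 CPM in control libraries. Its groups were apart on both sides, and the activated PaG of snail 4 was the lowest of the 6 activated PaG. Contig 520626 was at 23.9, 19.4 and 5.17 CPM in left activated libraries, against 0.796, 0.245 and 0.237 CPM in left control libraries (log2 fold change 5.00). Contigs 1606860 and 369332 averaged 13.8 ± 3.87 and 15.9 ± 6.32 CPM in left activated PaG, and 0.697 ± 0.591 and 0.779 ± 0.565 CPM in left control PaG (SD, n = 3 each), with log2 fold changes of 4.08 and 4.17. All 4 were higher in the activated PaG in 6 of 6 snails, and all 4 were called without each left library in turn.

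The most abundant contigs of the left PaG did not pass the test. Contig 832420 alone took 5.45% to 6.37% of the counts of each left library and was at 60520, 55500 and 63325 CPM in left activated libraries, against 67404, 46958 and 52666 CPM in left control libraries (log2 fold change 0.07, adjusted p = 1 in edgeR's exact test). Contig 58320 was at 10532, 10619 and 12775 CPM in left activated libraries and at 10957, 8925 and 9209 CPM in left control libraries, while right libraries had between 2236 and 3785 CPM. Its level thus followed the side, and its log2 fold change on the left was 0.18 (adjusted p = 1). Contig 528559 overlapped between the left groups as well. Contigs that differed between the sides were also looked up. Of the 297 contigs called higher on the left than on the right over all 12 E1 libraries (0.0766%), 1 was called by activation in the left PaG, where 0.289% of all contigs were called. Of the 280 called lower on the left (0.0722%), 194 were tested in the left PaG, and 0 of them were called by edgeR's exact test, its quasi-likelihood test or DESeq2. An unadjusted p below 0.05 was found in 5 of the 297 and 6 of the 194, against 5.46% of all contigs. The side lists were called on libraries that include all the left ones. A contig with a wide spread within a side is less likely to enter them, so low counts here follow in part from the choice. These counts are a description only.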

How the data were processed

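RNA-Seq was made from the left and right PaG of 6 snails in E1, and from medial PaG parts of other snails in E2. By the methods, rRNA was depleted and a stranded total RNA kit was used, whereas the labels call the molecule polyA RNA. Per the submitters' processing notes and the methods, the authors removed adapters with cutadapt 1.11 before their de novo assembly, mapped the raw reads to it with Bowtie 1.0.0 and deposited the expected counts per contig that RSEM 1.2.18 estimated, without normalization. Of the E1 values, 22.1% were not whole, and the counts were rounded.

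Contigs whose counts summed to more than 10 in the 6 left libraries entered edgeR's exact test (TMM scaling, Benjamini-Hochberg adjustment). The study's methods filter at the same total over all 12 libraries of an experiment, which was run as an alternative. The right PaG were tested alike. For differences between the left and right responses, the quasi-likelihood test of edgeR was run on 12 libraries. E2 was tested over its own 12 libraries, without side or snail as a term. CPM carried 0.5 as prior on the log2 scale. Fold changes against a group without counts used a floor of 3 counts over the group, and intervals (95%, exact) cover counting error only. The labels number the snails, and each snail of E1 gave 1 left and 1 right library, so the snail pairs E1 libraries only across sides. Deviations of a snail's left and right libraries from their group means correlated at 0.758 to 0.838 over 30227 contigs averaging 50 counts or more. With 3 against 3 libraries, an exact permutation test of a single contig cannot go below p = 0.1, so only tests across all contigs were used.

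Named contigs were contig 1398029, the 12 higher and 6 lower with the smallest p, up to 5 higher on both sides by the larger of the left and right p, up to 3 opposite on the right, the 3 most abundant called higher and the 3 most abundant of all, with 4 shared with E2 and the 3 others higher on both sides added after their values were seen. Members, lists and the rule were chosen with earlier results of these data known. The tests were tried on simulated data. R 4.3.3, edgeR 4.0.16, limma 3.58.1 and DESeq2 1.42.0 were used. The 11 libraries made for the assembly have no counts here and were not analysed.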

Additional observations from a re-analysis of the deposited data

Results flagged for a closer look

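The response to activation differed between left and right PaG for 391 contigs (interaction term in the quasi-likelihood test of edgeR). That test takes both PaG of a snail as independent, and limma on the means of the 6 snails called 161. Of the contigs named by the rule, 16 were among the 391, and limma called these 16 too (adjusted p = 0.000418 to 0.0442). Left minus right on the log2 scale, it was 21.2 for contig 857855, 21.0 for contig 758549, 17.9 for contig 1071392, 17.6 for contig 946321, 16.4 for contig 1428295, 15.8 for contig 321126, 15.3 for contig 256015, 13.8 for contig 1293671, 13.7 for contig 552450, 12.7 for contig 372954 and 12.0 for contig 704724. It was -22.4 for contig 1476131, -19.3 for contig 963257, -17.8 for contig 878783, -16.9 for contig 355956 and -15.9 for contig 1228888. Adjusted p-values lay between 5.71e-05 and 0.0322 in edgeR's quasi-likelihood test. Where a group has no count these fitted values depend on the prior count and are no bounds. Side and set of snails cannot be told apart in them.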

How the results depend on the processing

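Scaling by RLE size factors or total counts, DESeq2, the filter over all 12 E1 libraries and dropping the fold change threshold left all 3 numbers of calls in the left PaG within 1.5 times of 865, 607 higher and 258 lower. The quasi-likelihood test called 2 (1 higher, 1 lower), 0 of the E2 list and 0 contigs on the right. In 4 groups of 3 it called 81 (44 higher, 37 lower) and 0 of the E2 list. No filter gave 537 (352 higher), a filter of 1 CPM in 3 libraries 161 lower and thinning to the smallest library 146 lower. Leaving out 1 left library gave 806 to 1483 calls, 538 to 1179 higher and 231 to 530 lower, and 10 to 23 of the E2 list. The extremes were 1483 and 1179 without the control library of snail 4, 475 lower without that of snail 5 and 530 lower without that of snail 6. The share of higher among the calls was 70.2%, but 57.9% and 53.7% without the last 2, 79.5% without that of snail 4, 50.0% in the quasi-likelihood test, 54.3% in 4 groups and 99.5% with the block in limma. Without the control library of snail 4 the median of all contigs shifted by 0.30 on the log2 scale. On the right, 1129 to 2007 contigs were called with 1 library left out, the most without the control library of snail 2. The difference between left and right was called for 161 contigs by limma on snail means and for 256 to 340 with 1 library left out, 258 without the left activated library of snail 3 and 256 without the right control library of snail 1.

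No snail has both groups on the left, so the replicate block (snail, with side) used both sides. In edgeR's quasi-likelihood test this block called 2794 contigs (2117 higher, 677 lower, 247 shared with the 865) and 40 of the E2 list, but its prior degrees of freedom came out infinite, so that no contig kept its own spread. Limma with the same block on log2 CPM, added after seeing the data, called 559 (556 higher, 3 lower, 115 shared). Under the block, signs turned in edgeR for contigs 857855 (-1.97), 1293671 (-0.10), 1071392 (-1.90), 758549 (-0.22), 256015 (-0.84), 1476131 (0.18), 704724 (-0.56), 832420 (-0.079) and 58320 (-0.011), and in limma for contigs 857855 (-0.076), 1428295 (-0.0038), 1071392 (-0.16), 758549 (-0.21), 256015 (-0.051), 963257 (0.16), 1476131 (0.17), 355956 (0.12), 704724 (-0.50), 832420 (-0.079) and 58320 (-0.011). The block takes out what both PaG of a snail share.

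Contig 1398029 kept its direction throughout, at 2.90 to 4.30 with 1 library left out, but missed the threshold in the quasi-likelihood test (3.37), in 4 groups (3.35), with the study's filter over 12 libraries (3.35, adjusted p = 0.0678), under which 692 contigs were called, and with no filter (3.34, adjusted p = 0.117). Contig 832420 turned with the 1 CPM filter (-0.056), thinning (-0.065) and without the control library of snail 5 (-0.0021 to 0.11 with 1 library left out), and contig 528559 without the activated library of snail 1 (-0.0032 to 0.48). Depth limits the control side most, where the libraries of snails 5 and 6 are the shallowest. The causes of these changes were not tested.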
